A study of Homo sapiens with 20 samples.

Results

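The centromere, kinetochore and spindle checkpoint genes described here are 38 genes chosen by symbol. Of these, 37 had a transcript cluster named for 1 gene among the 18417 named genes on the array. PMF1, a subunit of the Mis12 complex, shared its cluster with another symbol and was left out. The cells were B5/589, an immortalized line of human mammary epithelial cells that carries an inducible p53 transgene, and all 5 groups carry it. The groups, each of 4 arrays, were uninduced cells collected at 24 h (0 ng of doxycycline) and cells induced with either 3 ng or 5 ng of doxycycline and collected at 12 h or at 24 h. The question behind the doses is which genes respond to little p53 and which to more. Doses are labelled in ng with no volume, the only cells without doxycycline are those of 24 h, and the sources used here do not give the promoter that drives the transgene or say whether the line is 1 clone. Doxycycline and p53 cannot be told apart, because no group used here received doxycycline without the transgene. The labels do not say whether the 4 arrays of a group are separate cultures, so the p-values rest on a spread between arrays that may be only technical.

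The kinetochore is the protein assembly on each centromere that holds chromosomes to the microtubules of the spindle. An inner network on the centromeric nucleosomes (the CCAN) carries an outer layer, the Ndc80, Mis12 and KNL1 complexes, that grips the microtubules, and the spindle checkpoint delays the separation of chromosomes until all are attached. Many of these genes are transcribed mainly in the G2 and M phases of the cell cycle. In cells that divide, p53 is known to induce the inhibitor p21 (CDKN1A), after which the DREAM complex of RB-family and MuvB proteins can repress genes whose promoters hold a cell cycle genes homology region (CHR), often near CCAAT boxes that bind NF-Y.

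Promoter windows of RefSeq (GRCh38.p14, 250 bases before to 50 after a start) were matched by symbol to 29 of the 37 genes and gave 32 windows. They were not listed for CENPH, CENPL, CENPM, KNL1, MIS18A, KNTC1, BUB3 and BIRC5. The CHR was searched as TTTGAA or TTTAAA, the CCAAT box as CCAAT and the E2F site as TTTCCCGC, TTTCGCGC, TTTGCCGC or TTTGGCGC, each on both strands. The 150 bases before the start of 5 genes are shown 5′ to 3′ on the gene's strand, the first 4 because they hold both a CHR and CCAAT boxes and NSL1 because it holds neither. CENPI and DSN1 also held neither and are not shown. HJURP, the chaperone that loads CENP-A, lies at chr2:233854536-233854685 (minus strand) and CENPF, a corona protein, at chr1:214603045-214603194 (plus). CDCA8 and INCENP, both of the chromosomal passenger complex, lie at chr1:37692366-37692515 (plus) and chr11:62123861-62124010 (plus), and NSL1 at chr1:212791778-212791927 (minus). Capitals mark the CHR and the CCAAT box on either strand, and in CDCA8 a CHR and a CCAAT box share 1 run of capitals because they overlap.
HJURP: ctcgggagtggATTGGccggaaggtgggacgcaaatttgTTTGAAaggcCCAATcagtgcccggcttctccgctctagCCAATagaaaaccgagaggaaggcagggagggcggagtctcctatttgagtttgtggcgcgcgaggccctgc
CENPF: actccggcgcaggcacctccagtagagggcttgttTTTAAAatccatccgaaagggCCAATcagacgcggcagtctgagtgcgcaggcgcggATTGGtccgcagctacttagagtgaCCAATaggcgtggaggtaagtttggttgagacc
CDCA8: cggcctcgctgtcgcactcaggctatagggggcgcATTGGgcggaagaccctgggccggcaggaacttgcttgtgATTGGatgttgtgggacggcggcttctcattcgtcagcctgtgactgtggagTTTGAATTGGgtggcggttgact
INCENP: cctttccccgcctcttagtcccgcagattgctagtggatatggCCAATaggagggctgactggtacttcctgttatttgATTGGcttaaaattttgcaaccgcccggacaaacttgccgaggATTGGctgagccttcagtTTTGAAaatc
NSL1: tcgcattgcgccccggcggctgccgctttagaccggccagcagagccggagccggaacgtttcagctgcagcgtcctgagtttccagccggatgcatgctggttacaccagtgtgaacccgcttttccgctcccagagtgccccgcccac

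A CHR was present in 19 of the 32 windows (59.4%), against 24.0% of all 35116 windows of the same length. The CCAAT box was present in 23 (71.9%), against 34.6% of all windows. Both stood in 13 windows (40.6%), against 9.27% of all, and those belonged to 11 genes. The E2F site was rarer, in 4 windows (12.5%) of CENPU, MIS12 and OIP5, against 3.31% of all. Among the genes with a CHR the falls described below were unequal, since CENPC and ZW10, whose later falls were among the smallest, held a CHR and a CCAAT box. CENPI, which held neither, had the largest fall of the inner network at 5 ng for 24 h (-4.02). At 5 ng against 0 ng at 24 h the median log2 difference was -3.41 over the 17 genes with a CHR and -2.80 over the 12 without. For the CCAAT box the order was the other way, -3.08 over the 20 genes with it and -3.89 over those without. It was also the other way for both motifs together, -3.26 over the 11 genes with both and -3.37 over the rest. For the E2F site the medians were -2.81 over the 3 genes with it and -3.37 over those without. These counts and medians are descriptions with no test, the windows were not matched for base composition, and a match of letters is not a binding site.

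Pearson correlations between arrays of a group lay between 0.979 and 0.986 over all transcript clusters, a measure that does not register differences in brightness. Within 3 ng at 12 h the array medians spread from 4.77 to 5.54. Array medians ran from 4.54 to 5.54, and their group means were 5.07 at 0 ng, 5.15 and 4.96 at 12 h with 3 and 5 ng, and 4.85 and 4.80 at 24 h with 3 and 5 ng. Replicate 2 of 3 ng at 12 h was the brightest array, and counts that use its group are given with and without it. CDKN1A, the p53 target used to check the labels, had log2 signals of 8.43 to 8.99 at 0 ng, 9.39 to 9.82 at 3 ng and 9.79 to 9.94 at 5 ng for 12 h, 9.10 to 9.43 at 3 ng and 9.96 to 10.11 at 5 ng for 24 h. Every induced array was above every array of 0 ng. The epithelial label was checked on 8 of 10 listed markers with a named cluster, of which KRT5, KRT14, KRT8, KRT18, CDH1, EPCAM and EGFR ranged between 8.95 and 13.07 over the 20 arrays and KRT19 from 4.96 to 5.93. Of the other cell types, 7 fibroblast markers ranged from -0.63 (DCN) to 6.74 (COL1A1) and 5 endothelial markers from 0.92 (PECAM1) to 4.74 (KDR). The 5 measured immune markers ranged from -0.97 to 0.03 for PTPRC, 4.36 to 6.74 for CD14, 4.90 to 6.44 for ITGAM and 8.36 to 9.05 for CD68, which other cells also express, with CD3E from 2.44 to 3.85. Quantile normalization, which makes the arrays equally bright, moved the median difference of all genes from -0.24 to 0.08 at 3 ng against 0 ng at 24 h and from -0.24 to 0.07 at 5 ng. It changed the split of all called genes at these doses from 276 higher and 4228 lower to 2834 and 2308, and from 833 and 4333 to 3786 and 3172. Centring each array on its median gave 814 higher and 2361 lower at 3 ng, and 2172 and 2730 at 5 ng. None of the calls among the 37 genes changed direction under either.

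At 24 h all of the kinetochore genes measured fell at the lower dose and nearly all at the higher. Against 0 ng, 37 of 37 fell at 3 ng (23.0% of all genes were called lower), and 36 of 37 fell at 5 ng (23.5% of all genes). After quantile normalization the counts were again 37 and 36, against 12.5% and 17.2% of all genes called lower. The median log2 difference of the 37 genes was -2.28 at 3 ng and -3.08 at 5 ng, against -0.24 for all genes at each dose. Called falls of at least 2-fold were seen in 33 genes at 3 ng and 35 at 5 ng, and of at least 4-fold in 25 and 29. The share of all genes with falls of these sizes was not counted. The arrays of 3 ng lay below those of 0 ng with no overlap in 37 genes (27.9% of all genes), and those of 5 ng in 36 (27.0% of all genes). Both comparisons share the 0 ng arrays, so each is given on its own. In bulk RNA, fewer cells that express a gene and less RNA per cell cannot be told apart. Values below are log2 signals and log2 differences ± SE of the limma fit, with 4 arrays in each group, and arrays are given in the order of replicates 1 to 4.

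**Figure D1:**
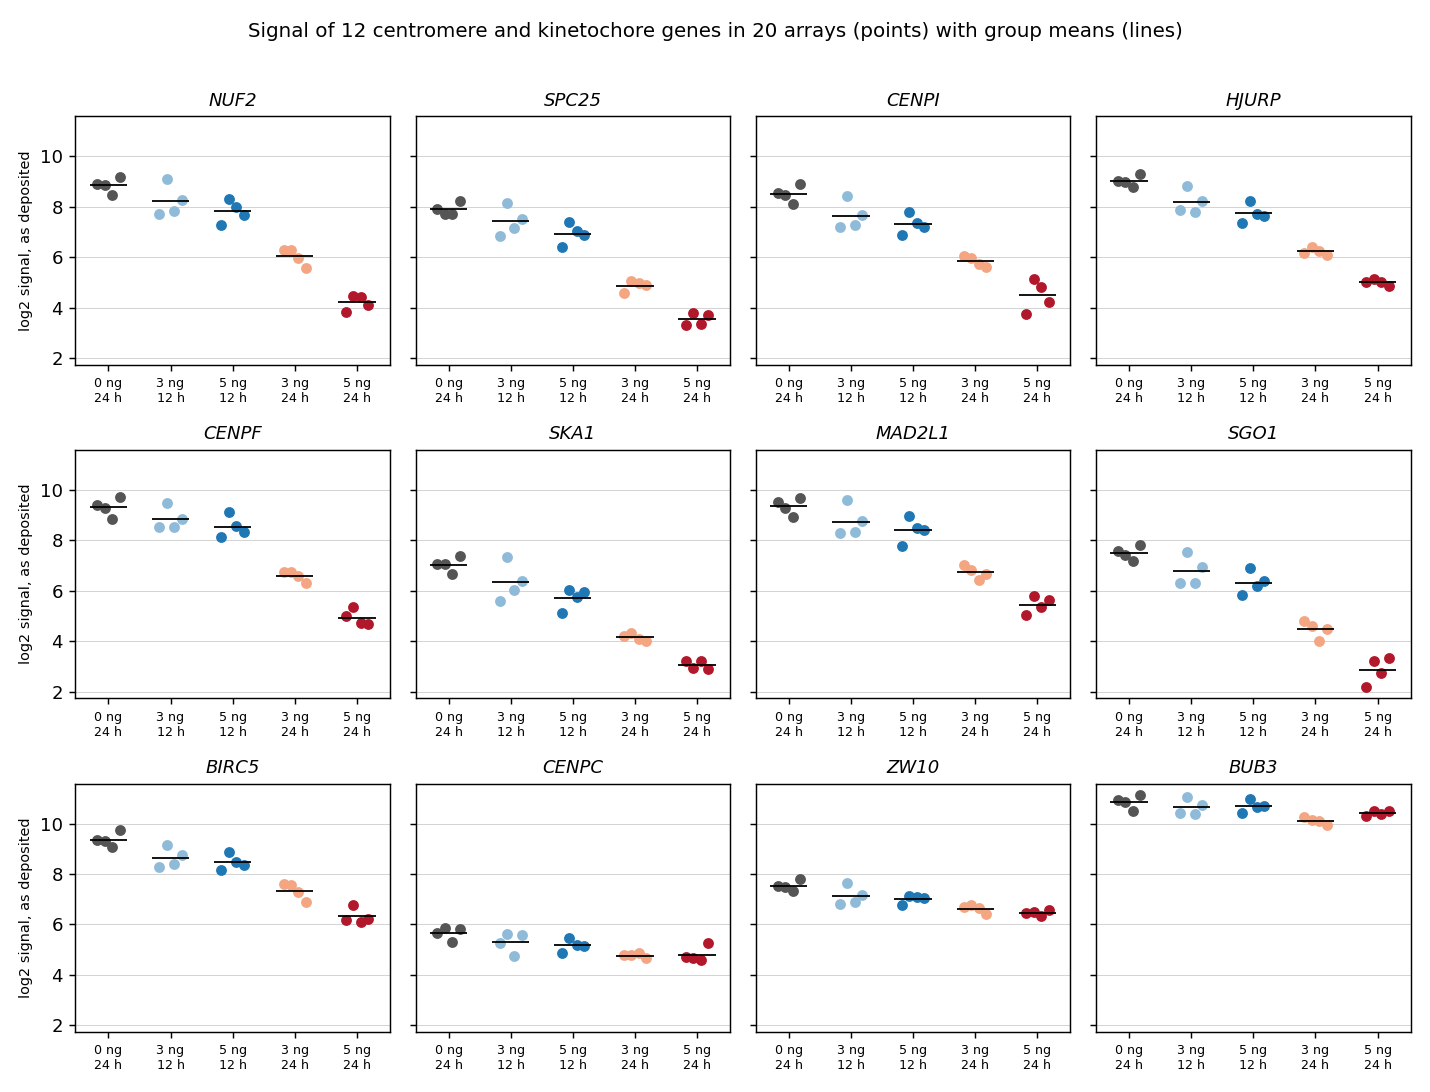
Log2 signal (y axis) of 12 genes in each of the 20 arrays (points), by dose and time (x axis), with group means (lines). In NUF2, SPC25, CENPF and SGO1 the 4 arrays of 5 ng at 24 h lie below all 4 of 3 ng at 24 h, whereas in BUB3 they lie above them.

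The Ndc80 complex, a rod of 4 proteins that binds the microtubule, held the largest fall of the 37 genes at 5 ng. NUF2, 1 of its microtubule-binding subunits, had signals of 8.89, 8.88, 8.48 and 9.19 at 0 ng, 6.29, 6.30, 5.97 and 5.59 at 3 ng and 3.82, 4.45, 4.44 and 4.12 at 5 ng. The 3 groups did not overlap, and the order followed the dose. The fall was -2.82 ± 0.27 at 3 ng (7.07-fold, adjusted p = 1.5e-07) and -4.65 ± 0.27 at 5 ng (25.2-fold, adjusted p = 3.8e-11). SPC25, which ties the rod to the Mis12 complex, had signals of 7.93, 7.72, 7.73 and 8.23 at 0 ng, 4.57, 5.06, 4.98 and 4.91 at 3 ng and 3.31, 3.78, 3.35 and 3.73 at 5 ng. Its groups were likewise separate, with falls of -3.02 ± 0.24 and -4.36 ± 0.24 (20.5-fold at 5 ng, adjusted p = 2.1e-11). The differences of NDC80 itself were -2.78 at 3 ng and -3.89 at 5 ng, and those of SPC24, which pairs with SPC25, were -1.98 and -2.78.

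The other outer complexes held both large and small falls. At 5 ng the difference was -3.10 ± 0.22 for KNL1, the scaffold on which checkpoint proteins gather, -2.91 ± 0.22 for its partner ZWINT and -2.56 ± 0.19 for the Mis12 subunit DSN1. The other measured Mis12 subunits fell less, NSL1 with -1.20 ± 0.18 (2.30-fold) and MIS12 with -1.06 ± 0.18 (2.08-fold). MIS12 had signals from 7.78 to 8.46 at 0 ng, from 7.01 to 7.31 at 3 ng and from 6.99 to 7.21 at 5 ng, so the induced groups overlapped each other but not the 0 ng group. All 9 measured genes of the Ndc80, Mis12 and KNL1 complexes fell at each dose, with median differences of -2.18 at 3 ng and -2.91 at 5 ng.

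Within the inner network, all 11 genes fell at each dose, with medians of -2.14 at 3 ng and -2.81 at 5 ng. CENPI, of the CENP-H, I, K and M subcomplex, had signals of 8.53, 8.48, 8.10 and 8.90 at 0 ng, 6.05, 5.99, 5.72 and 5.60 at 3 ng and 3.76, 5.13, 4.82 and 4.23 at 5 ng. The spread was widest at 5 ng, yet no array of that group reached the 3 ng arrays. Its fall was -2.66 ± 0.29 at 3 ng and -4.02 ± 0.29 at 5 ng (16.2-fold, adjusted p = 6.1e-10). CENPK, of the same subcomplex, had signals of 7.19, 7.16, 6.88 and 7.56 at 0 ng, 4.86, 4.34, 4.12 and 4.71 at 3 ng and 3.53, 2.89, 3.74 and 4.02 at 5 ng. The induced groups stood apart from each other by a narrow margin, and the falls were -2.69 ± 0.27 and -3.65 ± 0.27 (12.6-fold at 5 ng, adjusted p = 1.1e-09). Their partners differed. At 5 ng the difference of CENPH was -3.45 ± 0.34, with arrays that varied from 2.17 to 3.55, and that of CENPM -1.46 ± 0.16, with arrays between 6.16 and 6.53.

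The remaining inner genes ranged widely. In the CENP-O, P, Q, U and R complex, the differences at 5 ng were -3.36 ± 0.38 for CENPQ, -2.91 ± 0.19 for CENPO and -2.81 ± 0.23 for CENPU, a docking site for the kinase PLK1. CENPQ was the noisiest of the 3, with signals from 1.17 to 3.35 at 5 ng. CENPL and CENPN, which sit together on the CENP-A nucleosome, showed -2.55 and -2.49. CENPW, a histone-fold protein that pairs with CENPT, showed -1.20 ± 0.20. The smallest fall of the network was that of CENPC, which links the CENP-A nucleosome to the outer kinetochore. CENPC had signals of 5.67, 5.84, 5.32 and 5.82 at 0 ng, 4.77, 4.78, 4.85 and 4.66 at 3 ng and 4.70, 4.67, 4.60 and 5.26 at 5 ng, and its differences were -0.90 ± 0.19 (1.86-fold) at 3 ng and -0.86 ± 0.19 (1.81-fold) at 5 ng. Both induced groups lay below the 0 ng arrays and overlapped each other.

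The genes that load CENP-A, the histone that marks the centromere, all fell. HJURP had signals of 9.03, 8.97, 8.80 and 9.32 at 0 ng, 6.17, 6.39, 6.25 and 6.11 at 3 ng and 5.03, 5.12, 5.02 and 4.87 at 5 ng. The 3 groups were tight and far apart, with falls of -2.80 ± 0.20 and -4.02 ± 0.20 (16.2-fold at 5 ng, adjusted p = 7.8e-12). OIP5, a subunit of the Mis18 complex that licenses loading, had signals of 7.48, 7.59, 7.33 and 7.89 at 0 ng, 5.45, 5.29, 5.37 and 4.80 at 3 ng and 4.53, 4.50, 3.75 and 3.81 at 5 ng. The arrays of each dose stood apart, and the falls were -2.35 ± 0.25 and -3.43 ± 0.25 (10.7-fold at 5 ng, adjusted p = 1.1e-09). MIS18A, the other Mis18 subunit on the list, showed -1.89 and -2.32.

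Of the corona, the outermost fibrous layer, the motor and the large coiled-coil protein fell most. CENPF had signals of 9.40, 9.28, 8.84 and 9.72 at 0 ng, 6.75, 6.76, 6.58 and 6.31 at 3 ng and 5.01, 5.36, 4.73 and 4.67 at 5 ng. No array of 1 dose reached those of another, and the falls were -2.71 ± 0.24 and -4.37 ± 0.24 (20.6-fold at 5 ng, adjusted p = 1.9e-11). CENPE, a kinesin that carries chromosomes to the spindle equator, had signals of 7.42, 7.22, 6.83 and 7.78 at 0 ng, 4.59, 4.85, 4.51 and 4.48 at 3 ng and 3.08, 3.64, 3.15 and 3.42 at 5 ng. Its groups were separate too, with falls of -2.71 ± 0.26 and -3.99 ± 0.26 (15.9-fold at 5 ng, adjusted p = 1.5e-10). KNTC1 (ROD) and ZW10 form 1 complex that brings dynein and checkpoint proteins to the kinetochore, but their differences at 5 ng were unequal, -3.08 ± 0.23 for KNTC1 and -1.08 ± 0.17 (2.12-fold) for ZW10.

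The Ska complex, which helps Ndc80 follow a shrinking microtubule, also held both large and small falls. SKA1 had signals of 7.06, 7.05, 6.65 and 7.38 at 0 ng, 4.22, 4.34, 4.08 and 4.03 at 3 ng and 3.23, 2.96, 3.21 and 2.90 at 5 ng. The arrays of each dose lay close together and did not meet those of another dose, and the falls were -2.87 ± 0.27 and -3.96 ± 0.27 (15.6-fold at 5 ng, adjusted p = 3.2e-10). SKA3 had signals of 8.96, 8.84, 8.59 and 9.17 at 0 ng, 6.55, 6.71, 6.39 and 6.22 at 3 ng and 5.30, 5.66, 5.45 and 5.63 at 5 ng. It also separated by dose, with falls of -2.42 ± 0.20 and -3.38 ± 0.20 (10.4-fold at 5 ng, adjusted p = 5.2e-11). SKA2 fell less, with -1.14 ± 0.20 at 3 ng and -1.28 ± 0.20 at 5 ng (2.43-fold) on the cluster used and -1.32 and -1.56 on its other, dimmer cluster.

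The checkpoint genes on the list behaved unlike each other. MAD2L1 encodes MAD2, which blocks the activator CDC20 of the anaphase-promoting complex. Its signals were 9.53, 9.29, 8.92 and 9.70 at 0 ng, 7.04, 6.83, 6.45 and 6.67 at 3 ng and 5.05, 5.78, 5.35 and 5.63 at 5 ng. The doses did not overlap, and the falls were -2.61 ± 0.27 and -3.91 ± 0.27 (adjusted p at 5 ng = 4.5e-10). BUB3, which docks BUB1 and BUBR1 on KNL1, had signals of 10.94, 10.85, 10.49 and 11.14 at 0 ng, 10.26, 10.15, 10.10 and 9.93 at 3 ng and 10.30, 10.51, 10.37 and 10.51 at 5 ng. The 3 ng arrays lay below all 0 ng arrays, while the 5 ng arrays overlapped them. The difference was -0.75 ± 0.17 at 3 ng (1.68-fold, adjusted p = 0.0027) and -0.43 ± 0.17 at 5 ng, which was not called (adjusted p = 0.059). BUB3 was called lower at 5 ng with a replicate block (adjusted p = 0.042), with the dimmest 30% of genes removed (0.034), with trend and robust options (0.018) and without replicate 3 of 0 ng (0.018). With each array centred on its median its difference was -0.16 (adjusted p = 0.52).

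The chromosomal passenger complex corrects faulty attachments through the kinase Aurora B, and its 3 other subunits are on the list. CDCA8 (borealin) had signals of 8.32, 8.29, 8.13 and 8.75 at 0 ng, 5.54, 6.06, 5.49 and 5.57 at 3 ng and 5.00, 4.97, 5.12 and 4.75 at 5 ng. The doses were separate, and the falls were -2.71 ± 0.23 and -3.41 ± 0.23 (10.6-fold at 5 ng, adjusted p = 2.5e-10). BIRC5 (survivin) had signals of 9.34, 9.29, 9.07 and 9.73 at 0 ng, 7.61, 7.57, 7.27 and 6.89 at 3 ng and 6.17, 6.79, 6.10 and 6.21 at 5 ng. Its lowest 3 ng array stood just above its highest 5 ng array, and the falls were -2.02 ± 0.22 and -3.04 ± 0.22 (8.22-fold at 5 ng, adjusted p = 8.1e-10). On a second, dimmer cluster of BIRC5 they were -1.08 and -1.54. INCENP, the scaffold, showed -1.69 at 3 ng and -2.08 at 5 ng. The shugoshins guard the cohesin that holds sister centromeres together. SGO1 had signals of 7.57, 7.41, 7.19 and 7.80 at 0 ng, 4.79, 4.61, 4.03 and 4.50 at 3 ng and 2.19, 3.23, 2.75 and 3.32 at 5 ng. Its doses were separate, and the falls were -3.01 ± 0.29 and -4.62 ± 0.29 (24.6-fold at 5 ng, adjusted p = 9.1e-11). SGO2 had signals of 6.36, 6.18, 5.92 and 6.81 at 0 ng, 3.94, 3.98, 3.73 and 3.62 at 3 ng and 3.23, 3.37, 3.10 and 2.53 at 5 ng. It too was ordered by dose without overlap, with falls of -2.50 ± 0.26 and -3.26 ± 0.26 (9.58-fold at 5 ng, adjusted p = 3.5e-09).

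**Figure D2:**
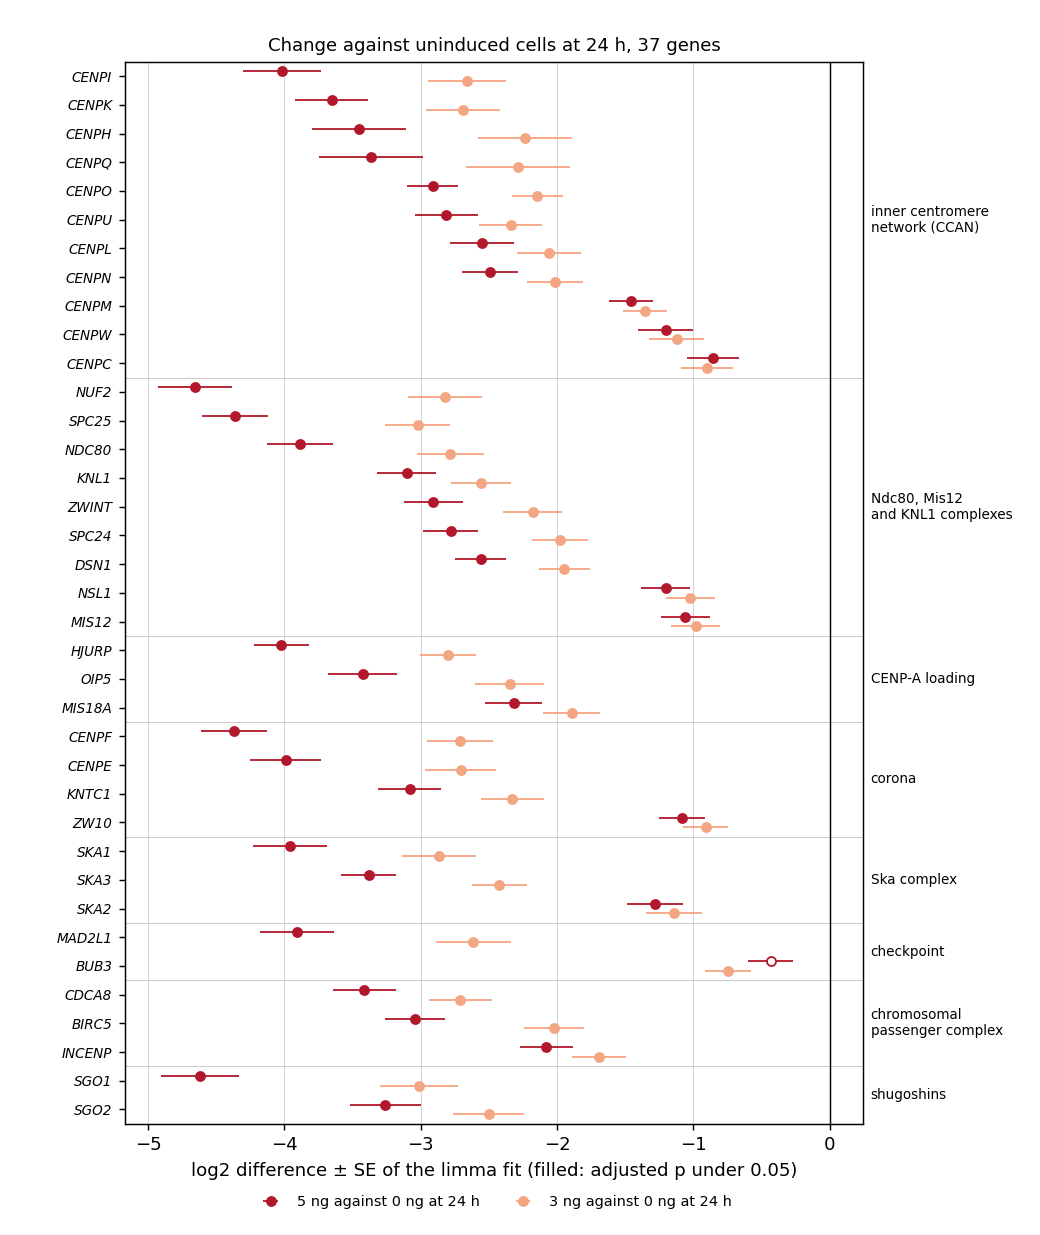
Log2 difference against 0 ng at 24 h (x axis, ± SE of the limma fit) of 37 genes (y axis, by role) at 3 ng and 5 ng, filled where the adjusted p is under 0.05. In the inner network, the Ndc80, Mis12 and KNL1 complexes, the corona and the Ska complex the genes spread from falls of over 3 at 5 ng to falls near 1, as for CENPI and CENPC or SPC25 and MIS12, and BUB3 at 5 ng is the open point.

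Part of these genes were lower still at the higher dose. Of the 37 genes, 15 were lower at 5 ng than at 3 ng at 24 h and none was higher (0.755% of all genes were called lower and 1.79% higher). The median difference was -0.76, against -0.005 for all genes. The largest differences were those of NUF2 (-1.83 ± 0.27, 3.56-fold, adjusted p = 0.00051), CENPF (-1.66 ± 0.24, 3.15-fold, adjusted p = 0.00042) and SGO1 (-1.61 ± 0.29, 3.05-fold, adjusted p = 0.0022). The next in size were CENPI (-1.36), SPC25 (-1.34), MAD2L1 (-1.30), CENPE (-1.29), HJURP (-1.22), NDC80 (-1.10) and SKA1 (-1.09). OIP5, BIRC5, SKA3, SPC24 and CENPO were also called, with differences from -1.08 to -0.77. On the second, dimmer cluster of BIRC5 the difference was -0.46 and was not called (limma adjusted p = 0.83 over all clusters). By role, 4 of 9 genes of the Ndc80, Mis12 and KNL1 complexes, 2 of 11 of the inner network, 2 of 3 of CENP-A loading, 2 of 4 of the corona, 2 of 3 of Ska, 1 of 3 passenger genes, MAD2L1 and SGO1 were called. All 4 members of the Ndc80 complex were among them, but not all calls held when 1 array was left out. NDC80, OIP5 and BIRC5 lost the call without some arrays, SPC24 and CENPO without nearly any array, and SKA1 whichever was left out.

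Other genes of the inner network were not called. CENPH (-1.21 ± 0.34), CENPQ (-1.08 ± 0.38) and CENPK (-0.96 ± 0.27) missed the threshold with adjusted p of 0.072, 0.22 and 0.067. The arrays of 5 ng lay below those of 3 ng without overlap in 25 genes (2.90% of all genes) and above them in BUB3 alone (8.31% of all genes), whose difference of 0.31 ± 0.17 was not called (adjusted p = 0.68). After BUB3, the genes with the smallest falls against 0 ng showed differences near 0 between the doses, CENPC 0.04 ± 0.19, MIS12 -0.08 ± 0.18, CENPW -0.08 ± 0.20, CENPM -0.10 ± 0.16, SKA2 -0.14 ± 0.20, ZW10 -0.17 ± 0.17 and NSL1 -0.18 ± 0.18. These differences share arrays with the falls, so their small size is partly built into the choice of genes. Quantile normalization raised the count from 15 to 27, against 4.42% of all genes called lower and a split of all called genes of 1097 higher and 814 lower (329 and 139 on the deposited values). The count was 9 without replicate 1 of 3 ng or without replicate 3 of 5 ng, where in each case 0.527% of all genes were called lower.

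At 12 h no difference between the doses was called. limma called 0 of 37 genes at 5 ng against 3 ng, and 0 of all genes were called lower and 0.0217% higher. An unadjusted p under 0.05 was seen in 6 of the 37 (KNTC1, SKA1, DSN1, CENPO, HJURP and SKA3). The share of all genes at that unadjusted p was not counted. After quantile normalization 1 gene, DSN1, was called (-0.37, adjusted p = 0.046), with 428 genes called higher and 78 lower over all genes. The median difference was -0.31, against -0.12 for all genes, and 35 of 37 differences were negative. The largest were SKA1 at -0.61 ± 0.27 and KNTC1 at -0.58 ± 0.23, and in no gene were the groups of arrays apart (0.402% of all genes lay apart and lower at 5 ng, 0.793% apart and higher). Without replicate 2 of 3 ng at 12 h these values were -0.28 and -0.36, NUF2 went from -0.41 to -0.12, the median of the 37 genes was -0.09, and the count was again 0.

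Whether the difference between doses grew from 12 h to 24 h was tested as an interaction. limma called 0 of 37 genes, and 0 of all genes, while 10 of the 37 had an unadjusted p under 0.05. These were CENPF (-1.35 ± 0.34, unadjusted p = 0.00074, adjusted p = 0.99), NUF2 (-1.42 ± 0.38, unadjusted p = 0.0013, adjusted p = 0.99), SGO1, CENPE, CENPI, MAD2L1, OIP5, SPC25, BIRC5 and HJURP. The share of all genes at that unadjusted p was not counted, so the 10 have no background to be set against. For BIRC5 the interaction was -0.84 on the cluster used and 0.05 on the dimmer cluster. The median over the 37 genes was -0.48, against 0.12 for all genes. Without replicate 2 of 3 ng at 12 h the count was again 0, the median was -0.70, and NUF2 stood at -1.71 and CENPF at -1.56 (adjusted p = 0.16 for each).

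**Figure D3:**
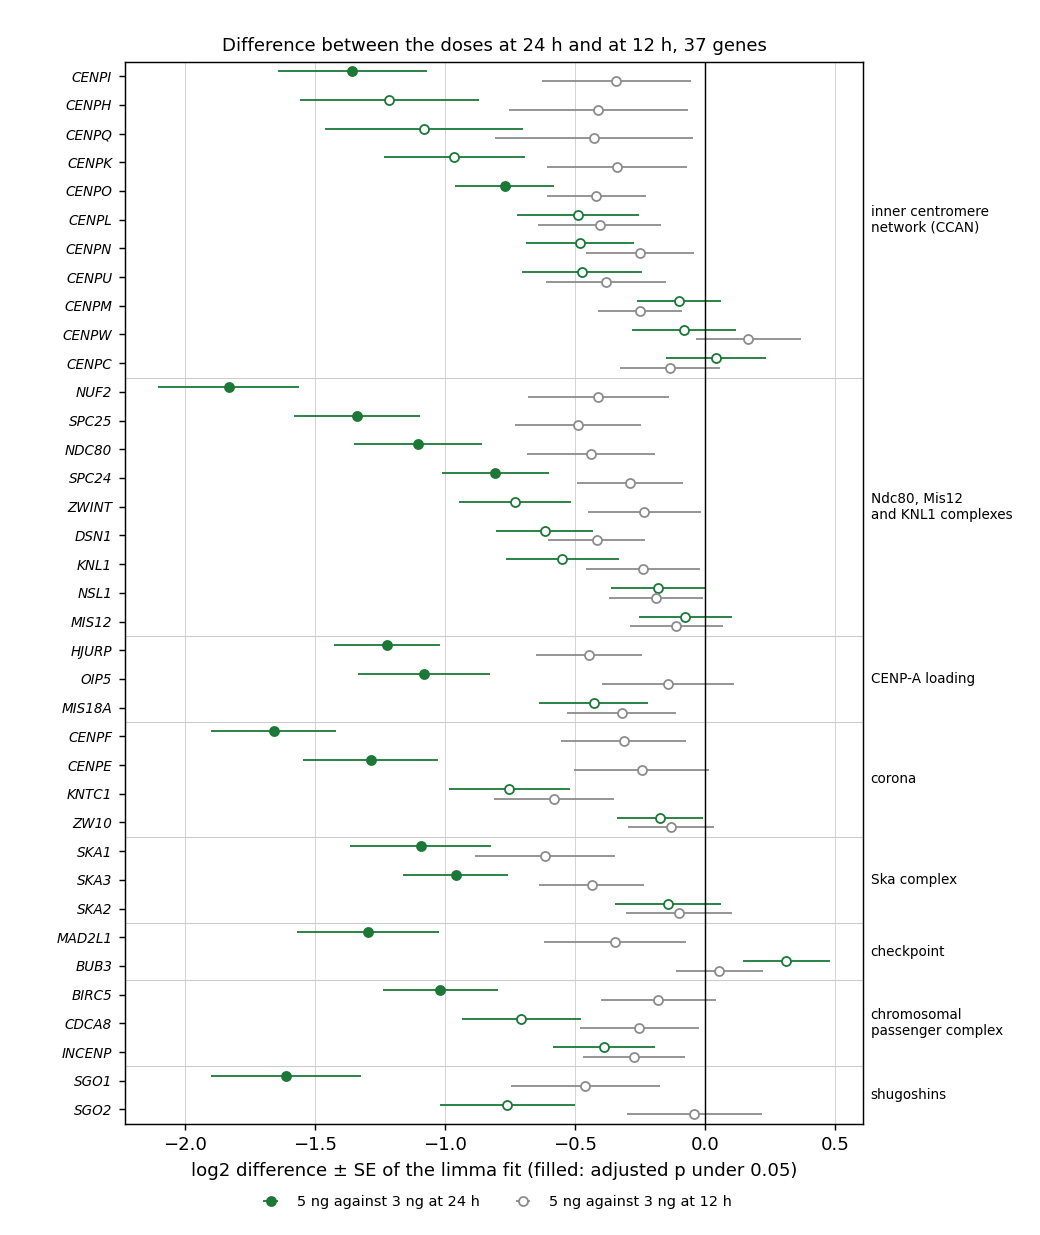
Log2 difference of 5 ng against 3 ng (x axis, ± SE of the limma fit) for 37 genes (y axis, by role) at 24 h and 12 h, filled where the adjusted p is under 0.05. The 15 filled points are all of 24 h and run from CENPO at -0.77 to NUF2 at -1.83, and no point of 12 h is filled.

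Only cells of 24 h were left without doxycycline, so in the comparisons of the 12 h groups with them dose and time differ together. At 5 ng for 12 h, 28 of 37 genes were lower (11.5% of all genes were called lower), with a median of -0.89 against -0.18 for all genes. Over all genes 633 were called higher and 2117 lower, 2110 and 2632 after quantile normalization, and 1082 and 1964 after centring. The largest differences were SKA1 at -1.31 ± 0.27, HJURP at -1.29 ± 0.20, CENPI at -1.20 ± 0.29, DSN1 at -1.20 ± 0.19 and KNTC1 at -1.19 ± 0.23. NUF2 and CENPF, with far larger falls at 24 h, did not lead at 12 h, where NUF2 stood at -1.04 ± 0.27 and CENPF at -0.77 ± 0.24. CENPH, CENPC, CENPW, KNL1, OIP5, CENPE, SKA2, BUB3 and SGO2 were not called. The count was 13 without replicate 1 of 5 ng at 12 h and 14 without replicate 4 of 0 ng, where 4.98% and 4.89% of all genes were called lower.

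At 3 ng for 12 h, 3 of 37 genes were lower (1.24% of all genes), HJURP (-0.85 ± 0.20, adjusted p = 0.026), DSN1 (-0.78 ± 0.19, adjusted p = 0.025) and CENPO (-0.73 ± 0.19, adjusted p = 0.039). All 37 differences were negative, with a median of -0.56 against -0.04 for all genes, but in each gene the arrays of the 2 groups overlapped (1.97% of all genes did not overlap and were lower). Over all genes 290 were called higher and 229 lower, 1218 and 1579 after quantile normalization, and 557 and 3063 after centring. Replicate 2 of this group was the high one. HJURP had signals of 7.88, 8.84, 7.79 and 8.22, NUF2 of 7.73, 9.10, 7.83 and 8.26, and SKA1 of 5.60, 7.36, 6.03 and 6.39. Without that array 26 of the 37 were called lower, and the share of all genes called lower rose to 13.4%. The count was 0 when replicate 1, 3 or 4 of this group, or replicate 1, 2 or 4 of 0 ng, was left out, and 25 with each array centred on its median.

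Most of these genes were lower at 24 h than at 12 h at both doses. Without uninduced cells of 12 h, time of induction and time in culture cannot be told apart in these comparisons. At 3 ng 32 of 37 were lower at 24 h (4.36% of all genes), with a median of -1.68 against -0.23 for all genes. At 5 ng 32 of 37 were lower (3.55% of all genes), with a median of -2.15 against -0.08. Over all genes 13 were called higher and 803 lower at 3 ng (1827 and 1116 after quantile normalization, 392 and 491 after centring), and 78 and 653 at 5 ng (1986 and 1400, 565 and 681). NUF2 went from signals of 7.28, 8.30, 8.01 and 7.69 at 12 h to between 3.82 and 4.45 at 5 ng, a difference of -3.61 ± 0.27 (12.2-fold, adjusted p = 1.0e-08). CENPF went from 8.15, 9.12, 8.58 and 8.32 to between 4.67 and 5.36, a difference of -3.60 ± 0.24 (12.1-fold, adjusted p = 3.9e-09). Both genes lost more signal between 12 h and 24 h than stood between the 12 h group and the uninduced cells. Over the same interval the differences were -3.45 ± 0.29 for SGO1, -3.41 ± 0.26 for CENPE, -3.39 ± 0.24 for SPC25 and -3.04 ± 0.24 for NDC80. MIS12, NSL1, ZW10, CENPC and BUB3 were not called at either dose, with differences from -0.50 to -0.54 at 3 ng and from -0.27 to -0.54 at 5 ng. After quantile normalization all of these but CENPC were called lower at both doses (36 of 37 at each, against 6.06% and 7.60% of all genes), with differences from -0.20 to -0.38. CENPW had the smallest difference of the 37 genes between 5 ng for 12 h and the uninduced cells. It was -0.08 ± 0.20, which was not called, and the signal of CENPW then fell by 1.13 ± 0.20 to 24 h. CENPH, KNL1, OIP5, CENPE and SGO2 were likewise not called at 5 ng for 12 h and then fell by more than CENPW. Without replicate 2 of 3 ng at 12 h the count at 3 ng was 29 (2.55% of all genes).

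**Figure D4:**
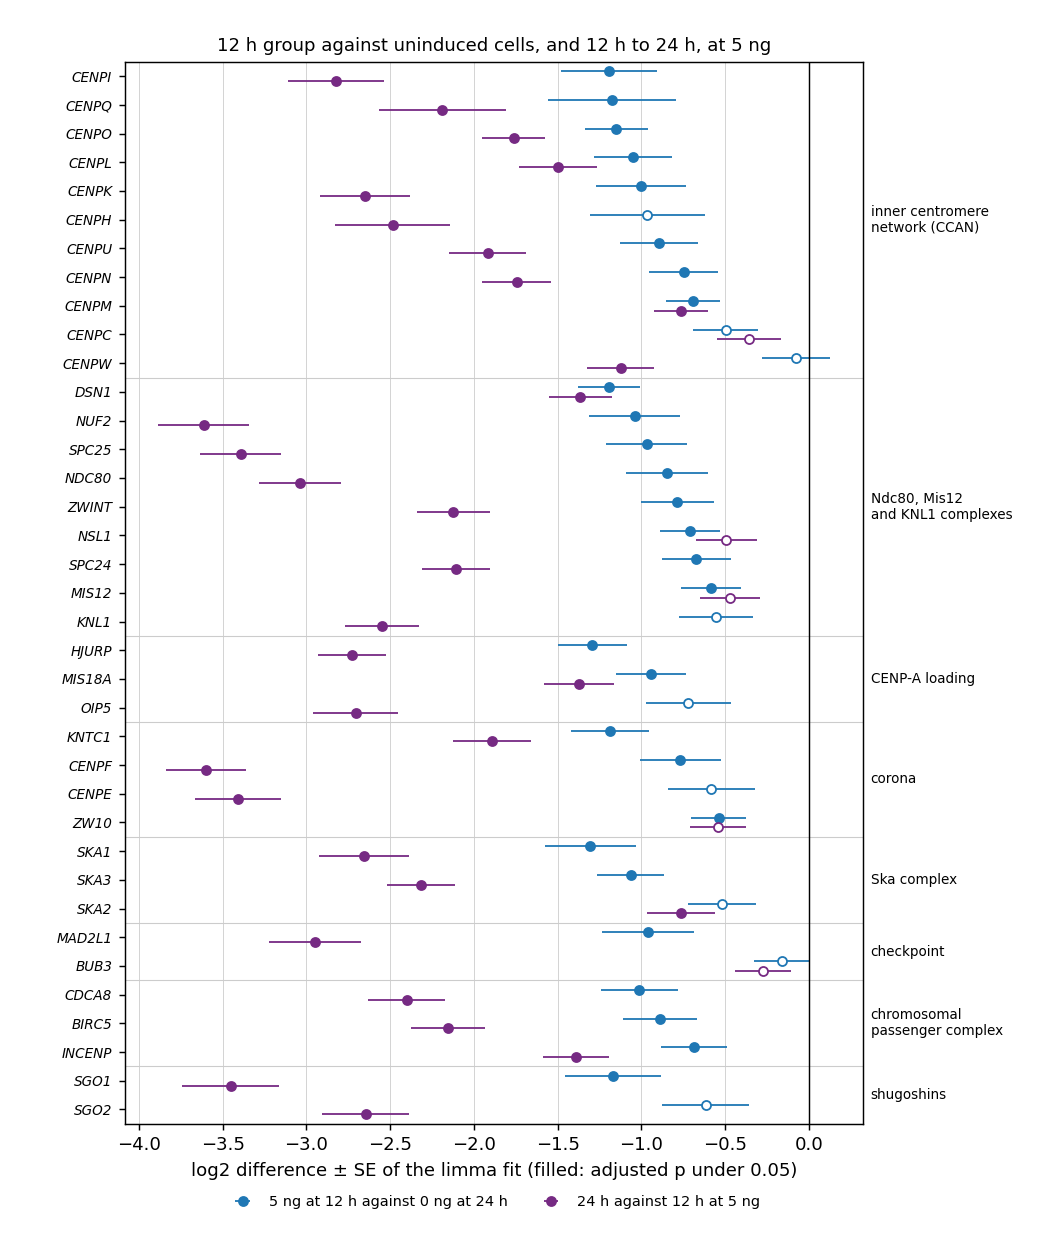
Log2 difference (x axis, ± SE of the limma fit) of 5 ng at 12 h against 0 ng at 24 h, and of 24 h against 12 h at 5 ng, for 37 genes (y axis, by role), filled where the adjusted p is under 0.05. For NUF2, SPC25, CENPF and CENPE the second difference is over 3 below 0 and the first near 1 or less, whereas MIS12, NSL1 and ZW10 show both differences between -0.71 and -0.47.

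In 34 of the 37 genes the 5 group means fell in 1 order, highest at 0 ng, then 3 ng at 12 h, 5 ng at 12 h, 3 ng at 24 h and lowest at 5 ng at 24 h. The share of all genes in this order was not counted. CENPC was lowest at 3 ng for 24 h, CENPW was higher at 5 ng than at 3 ng at 12 h, and BUB3 showed both departures. The step between the doses at 12 h was not called in any gene. That at 24 h was called in 15, of which 9 kept the call whichever array was left out. For genes without such a call the order of the doses within a time is not established. The step from 0 ng to 3 ng at 12 h was called in 3 genes, and each lost the call when some array was left out. The step from 5 ng at 12 h to 3 ng at 24 h was not compared. The median signal of the 37 genes was 7.93, 7.94, 7.73 and 8.29 at 0 ng, 7.18, 8.18, 7.27 and 7.64 at 3 ng for 12 h and 6.90, 7.71, 7.32 and 7.20 at 5 ng for 12 h. At 24 h it was 6.17, 6.25, 5.97 and 5.60 at 3 ng and 5.00, 5.12, 5.02 and 5.05 at 5 ng. The 5 ng arrays of 24 h differed by at most 0.12 in this median and lay below every other array.

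Other genes of chromosome segregation that are not on the list, together with 14 DREAM and MMB genes and regulators, were counted in the same fit. Of 73 such genes 70 were measured, of which 57 were lower and 1 higher at 3 ng for 24 h, and 55 lower and 1 higher at 5 ng, against 23.0% and 23.5% of all genes called lower. The 1 higher at each dose was CDKN1A, the gene used above to check the labels. Among the checkpoint and kinetochore kinases and their partners, 9 of 11 fell at 5 ng, with TTK (-4.63 ± 0.28), the kinase that starts checkpoint signalling, and PLK1 (-4.23 ± 0.21) the largest. Both are enzymes that act on the list's own proteins. MAD1L1, the partner of MAD2, stood at -0.23 ± 0.15 and MAD2L1BP, which takes MAD2 out of its active form, at -0.26 ± 0.15, and neither was called. The anaphase-promoting complex, the ubiquitin ligase that the checkpoint restrains, and its partners showed 12 of 18 lower. The largest were the inhibitor FBXO5 (-4.25 ± 0.23) and the ubiquitin-conjugating enzyme UBE2C (-2.73 ± 0.19), while ANAPC1, a scaffold subunit, stood at -1.45 ± 0.20 and ANAPC2, of the catalytic core, at -0.15 ± 0.14, which was not called.

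Of cohesin, condensin and their regulators, 18 of 21 fell at 5 ng against 0 ng at 24 h, where 23.5% of all genes were called lower. The condensin subunit NCAPH (-4.18 ± 0.24) and CDCA5 (sororin), which protects cohesin (-3.99 ± 0.20), fell most, and the cohesin ring subunit RAD21 stood at -1.39 ± 0.18. Of the 6 measured genes of the CENP-A nucleosome and the remaining CENP group 5 fell, with ITGB3BP (CENP-R) at -2.36 ± 0.21 and CENPV at -1.69 ± 0.17. CENPT, the partner of CENPW, stood at 0.05 ± 0.16 and was not called, with signals from 6.76 to 6.96 at 0 ng and from 6.88 to 6.97 at 5 ng. CENPA is not analysed here. Among 14 DREAM and MMB genes and regulators, 11 fell at 5 ng and CDKN1A rose by 1.44 ± 0.14. The activators FOXM1 (-3.57 ± 0.19) and MYBL2 (-3.38 ± 0.22) fell most. Between the doses at 24 h, 15 of the 70 were lower at 5 ng (0.755% of all genes) and 2 higher (1.79% of all genes), CDKN1A by 0.72 ± 0.14 and PTTG1 (securin) by 0.58 ± 0.16. After quantile normalization 35 were lower (4.42% of all genes) and 2 higher. Beyond the 2 largest falls of each of these lists, the genes named were chosen after their values were seen.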

How the data were processed

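Total RNA of 20 samples was hybridised to 20 Affymetrix arrays. The deposited values are log2 signals, with all probes of a transcription unit summarised as 1 cluster. The submitters' processing notes name GCOS, GCRMA, Affymetrix Power Tools and limma without versions or roles, so how the arrays were brought to a common scale remains unstated here. No scaling or filter was added.

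Of 33297 clusters, 19460 had 1 gene symbol, 1754 several, and 12083 were not listed in the platform annotation. The brightest cluster stood for each of 769 genes with more than 1, which left 18417 genes. limma 3.58.1 (R 4.3.3) fitted 1 mean per group with eBayes (15 residual degrees of freedom) and 9 comparisons. Each was adjusted with Benjamini-Hochberg over all genes, and genes were called at an adjusted p under 0.05. The scripts were tested on simulated data.

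The members and gene lists were chosen with earlier results of these data known. Array values are given for the 2 members of each role group with the largest called change at 5 ng against 0 ng at 24 h and for members not called there, and those of others were chosen after seeing them. Alternatives included quantile normalization, arrays centred on their medians, a block for the replicate number, a fit to the compared groups alone, eBayes with trend and robust options, a filter on the dimmest 30% of genes, averaged clusters, and leaving out each array.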

Additional observations from a re-analysis of the deposited data

Results flagged for a closer look

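Of 190 groups of 4 arrays examined for the 37 genes and for their median signal, 7 had a single array far from the other 3. Chance alone marks about 1 in 20. CENPC in replicate 4 of 5 ng at 24 h stood at 5.26, with the others between 4.60 and 4.70. BIRC5 in replicate 2 of the same group stood at 6.79, with the others between 6.10 and 6.21. CENPO in replicate 1 of that group was low at 5.23, against 5.52 to 5.57. At 3 ng for 24 h, CENPU was low in replicate 3 at 4.99 (5.30 to 5.34 in the others), CENPW was low in replicate 4 at 6.37 (6.71 to 6.76) and CDCA8 was high in replicate 2 at 6.06 (5.49 to 5.57). At 5 ng for 12 h, CENPM was low in replicate 1 at 6.99 (7.18 to 7.20).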

How the results depend on the processing

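The counts of genes lower at 24 h against 0 ng kept within 1.5 times of their values under every alternative run, at 37 for 3 ng and 36 to 37 for 5 ng. Quantile normalization moved their median differences to -1.97 and -2.68, and centring moved that of 24 h against 12 h at 3 ng to -1.38. For 5 ng against 3 ng at 24 h, quantile normalization gave 27 genes in place of 15 (4.42% of all genes called lower in place of 0.755%). It gave 1 in place of 0 at 12 h (0.424% in place of 0). Of the other segregation genes and the DREAM and MMB genes and regulators, 37 were called at 24 h in place of 17. For 3 ng at 12 h against 0 ng at 24 h the share of all genes called lower moved with the count. The 3 calls (1.24% of all genes) became 0 with only the groups compared in the fit (0.266%). They became 7 with the dimmest 30% of genes removed (4.65%) and 8 with trend and robust options (4.05%). After quantile normalization there were 12 (8.57%) and after centring 25 (16.6%). Leaving out 1 array at a time gave 9 to 13 genes for 5 ng against 3 ng at 24 h (0.527% to 0.679% of all genes called lower). It gave 0 to 26 for 3 ng at 12 h (0.168% to 13.4%) and 13 to 31 for 5 ng at 12 h (4.89% to 13.8%). Of 15 genes called between the doses, 9 kept the call whichever array was left out, and of 28 called at 5 ng for 12 h, 13 did. Of 5291 single-gene values, 5013 kept their side of the threshold, 134 lost the call, 144 gained it and none changed direction while called.

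Same-numbered arrays did not deviate together in every pair, since at most 2 of 4 pairs in any comparison had a correlation over 0.1 and at most 5 of 8 arrays correlated best with their own number. With the replicate number as a block, the counts were 37 and 37 at 24 h against 0 ng (24.5% and 24.7% of all genes called lower). Between the doses they were 16 at 24 h (0.923%) and 0 at 12 h (0%). For 3 and 5 ng at 12 h they were 5 and 30 (2.16% and 13%). From 12 h to 24 h they were 32 and 32 (5.01% and 3.97%), and for the interaction 0 (0%). The number of arrays limits the precision, and the values carry no detection call, so how far the dimmest genes of 5 ng at 24 h lay above background was not assessed.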
